A study of Mus musculus with 96 samples.

Results

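GATA6 binding in extra-embryonic endoderm (XEN) cells was compared with GATA6 binding in mouse embryonic stem (ES) cells after 4 days of forced GATA6 expression. The comparison covered all 42403 regions of the deposited table of GATA6 binding regions, with no further selection among them. It drew on 5 GATA6 and 5 input libraries of the 96 libraries of the series. Per the paper, the binding regions were identified from GATA6 signal over the times of induction and in XEN cells. Both groups compared here thus took part in defining the regions. The shares called and the balance of directions hold for this set of regions only. Binding was read out by ChIP-seq, where an antibody pulls down a protein together with the DNA fixed to it and that DNA is sequenced. Input is chromatin of the same kind, sequenced with no antibody step.

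GATA6 is a zinc finger transcription factor that binds the sequence GATA and is required to form the primitive endoderm (PrE), the layer of the blastocyst that lines the yolk sac and lays down basement membrane. XEN cells are stable lines of that lineage. Forced expression of GATA6 turns ES cells towards the same lineage, so day 4 of induction and XEN cells are often set side by side as an early and an established state.

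The XEN cells were line X10 of strain CD1, grown without treatment and without LIF. The day 4 cells were KH2 ES cells of a C57BL/6 x 129/Sv background, with a doxycycline (Dox)-inducible gata6 cassette and 96 h of Dox at 1 µg/mL. Both were cultured on mitomycin C-treated feeder fibroblasts, which were removed by adsorption before fixation with DSG and PFA, and the antibody recognises endogenous and transgenic GATA6 alike. Strain, cell line, medium, transgene and state differ together between the groups and cannot be told apart. Each group is 1 line, and the markers of either cell type were not checked, since no expression data were used.

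The authors deposited a single value per condition, in reads scaled to a library of 1 M (RPM). In both groups every such value of GATA6 and input resolved into whole reads of 2 libraries, which made a test against the spread between libraries possible. The GATA6 libraries held 18 and 11.8 M reads at day 4 and 15.3 and 14.6 M in XEN cells, and the input libraries 17.7 and 8.85 M at day 4 and 14.3 and 7.74 M in XEN cells. The share of reads in the regions was 9.77 and 11.0% for GATA6 at day 4, 13.1 and 12.0% in XEN cells, and 2.12 to 2.44% in input. For day 4 GATA6 and for XEN input the labels list 3 libraries under 2 replicate numbers, so a separated library may hold the reads of more than 1 run. Per the study's methods most conditions were analysed as independent chromatin preparations. Neither they nor the labels say that these came from separate cultures, so the p-values below measure the spread between these libraries, which may be technical. Libraries are named here as the deeper and the shallower of each pair. RPM values of single libraries are free of the 1 read that the authors had added to every region.

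GATA6 sites are given first, from regions that differ in opposite directions. They are the authors' best GATA6 motif match in regions of large difference and in 2 of the strongest regions, were picked after the sequences were seen, and were read from the mm10 genome, 5′ to 3′ on the strand of the match, with the matched bases in capitals and 8 flanking bases on each side.

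Slc22a8, higher in XEN (chr19:8603132-8603160, minus strand): tttgtgctCACAGATAAGCACtagagaaa
Igsf11, higher in XEN (chr16:38985272-38985300, plus strand): gagtatctGAAAGATAACAGAttccctct
Cntn4, higher in XEN (chr6:105918405-105918433, minus strand): caatgagtCACAGATAAGTTAtacccaac
Xxylt1, higher in XEN (chr16:30926251-30926279, minus strand): cttacaggGTAAGATAAGCCGttacatgg
Ptpn13, lower in XEN (chr5:103365248-103365276, minus strand): ggcatcagGAAAGATAAGGGGgtggaaac
Grik3, lower in XEN (chr4:125609954-125609982, minus strand): gtgtcttaCACAGAGAAGGTGgcctgaaa
Nfasc, lower in XEN (chr1:132762728-132762756, plus strand): gaattaaaGAAAGAGAAGACActtagaca
Ncoa3, lower in XEN (chr2:165961501-165961529, minus strand): cccttgtgGTAAGATTAGGTCtcactagg
Bzw1, lower in XEN (chr1:58392497-58392525, minus strand): aaagtctcCCGAGATAAGGACcttcagaa
Kif26a, lower in XEN (chr12:112276845-112276873, plus strand): cagtgccaGGCAGATAAACAAgacgatta
Col4a2, lower in XEN (chr8:11309383-11309411, minus strand): tacgccatCAGAGATAAGGAGtgcccaac
Arid5b, not called (chr10:68231605-68231633, plus strand): agttcctgGGAAGATAAGGCAgaggcatc

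Of the regions of largest difference described below, the matched bases held GATAA in 8 of 8 sites read at regions higher in XEN and in 5 of 9 at regions lower, with Ncoa3, Grik3, Nfasc and E2f7 the exceptions. The 8 matches at higher regions lay 6 to 130 bp from the summit, the base of highest GATA6 signal. Those at lower regions lay 5 to 920 bp away, with 20 at Ncoa3, 171 at Nfasc, 183 at E2f7 and 920 at Grik3. A match far from the summit need not be the bound site. Over all called regions the shares with GATAA lay closer together. A motif match was present in 90.2% of the regions higher in XEN cells and in 90.4% of those lower, against 89.7% of all regions. The matched bases held GATAA in 76.1% of matches at regions higher in XEN, 72.9% at regions lower and 76.2% over all regions.

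GATA6 signal was higher in XEN cells at 9079 regions (21.4% of the regions tested) and lower at 6181 (14.6%), which makes 36% in either direction. The test was limma on log2(RPM + 0.1) over all regions, two-sided, with a Benjamini-Hochberg adjusted p under 0.05. At the regions higher in XEN the median was 1.39 RPM at day 4 and 3.90 RPM in XEN cells, and at the lower regions 2.37 and 0.799 RPM. Of the called regions, 6797 of those higher and 5178 of those lower differed by more than 1 on the log2 scale. A higher value can mean more bound cells or more binding per cell, which cannot be told apart. Over all regions the median log2 difference was -0.02, with 90% of regions between -1.65 and 1.81. The libraries of the groups overlapped at only 7 of the regions called higher and 21 of those called lower, where over all regions both XEN libraries lay above both day 4 libraries at 35.5% and below them at 32.5%. The counts depended on single libraries. Without the shallower day 4 library 6015 regions were higher and 1516 lower, and without the deeper XEN library 4136 and 2736.

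**Figure D1:**
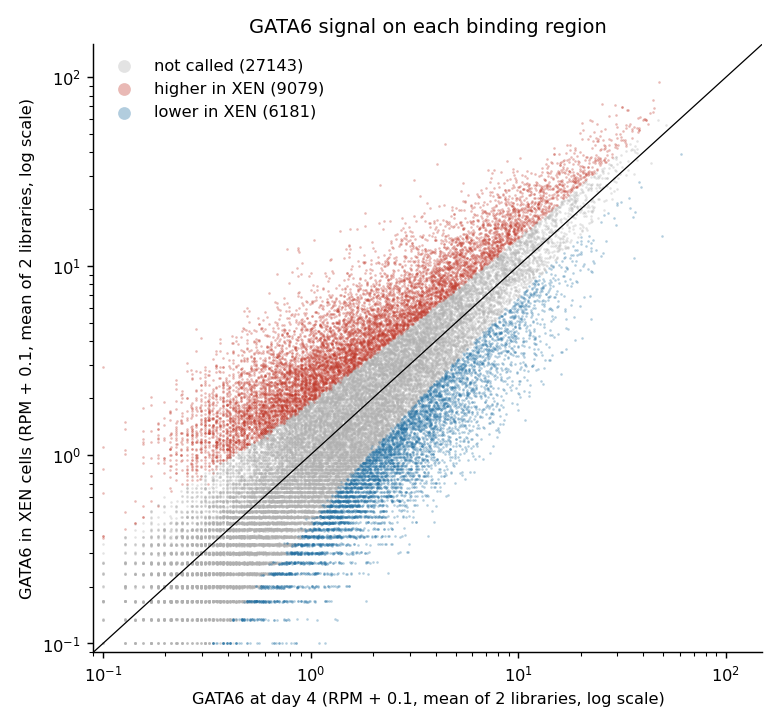
GATA6 signal of each of the 42403 regions at day 4 (x axis) and in XEN cells (y axis), as the mean of 2 libraries in RPM plus 0.1 on log axes, with the line of equality. The 9079 regions called higher in XEN and the 6181 called lower lie on either side of a band of 27143 regions that were not called.

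The separated libraries were alike within a group, with a Pearson correlation of log2 values over regions of 0.912 at day 4 and 0.946 in XEN cells, and less alike between groups (0.711 to 0.848). This is a description over regions, which share library and depth. The shallower XEN library lay closer to both day 4 libraries (0.848 and 0.768) than the deeper one did (0.795 and 0.711). At regions called lower in XEN, the shallower XEN library exceeded the deeper at 75.2%, and at regions called higher at 18%. The corresponding shares for the shallower day 4 library over the deeper were 77.9 and 42.8%. Over all regions the shallower library was the higher at 45.9% in XEN cells and 63.3% at day 4. How far this moves the counts is seen in the values without each library, above.

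GATA6 stood above input at 59% of all regions in XEN cells and at 61.1% at day 4 (limma, same threshold). Among the regions higher in XEN it did so at 98.6% in XEN cells and already at 71.7% at day 4, and among the regions lower in XEN at 45.1 and 84.8%.

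The strongest regions were called mostly in 1 direction. Regions were cut into 5 groups of even size by mean GATA6 signal. In the group of highest signal (3.65 RPM or more), 41.6% were higher in XEN and 13.7% lower, with a median log2 difference of 0.41. In the group of lowest signal (0.474 RPM or less), 0.755% were higher and 5.6% lower, and the median standard error of the log2 difference was 0.64, against 0.24 at the highest. Among the 1000 strongest regions 621 were higher in XEN and 47 lower, with 207 and 11 of them by more than 1 on the log2 scale. The median log2 difference rose with signal through the 5 groups, from -0.38 to 0.41. The XEN libraries also held more of their reads in the regions (13.1 and 12.0%) than those of day 4 (9.77 and 11.0%). RPM does not correct for this, and its part in the split was not tested.

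The region of highest signal in XEN cells lay in an intron of Clic6, which codes for a chloride intracellular channel protein, at chr16:92491863-92494733. It held 42.2 and 52.4 RPM at day 4 and 102 and 86.2 RPM in XEN cells, so that the groups did not overlap (log2 difference 0.99 ± 0.14, SE, limma adjusted p = 1.77e-07). The other four of the 5 strongest XEN regions, nearest to Nrp1, Tmem44, Arhgap26 and Gfra1, were also called higher in XEN, with log2 differences of 0.77 to 1.51. Apart from Nrp1 these regions lie on chromosomes 16, 18 and 19, and the input difference was 0.58 at Clic6, 1.18 at Tmem44, 0.78 at Arhgap26 and 0.90 at Gfra1. With the chromosome's median input difference taken out, GATA6 differed by 0.47 at Clic6, 0.98 at Tmem44, 0.97 at Arhgap26 and 0.65 at Gfra1. Each was still called. Beyond the region's own input none of the 5 was called (log2 0.23 to 0.50), in a fit that called 0.236% of all regions. At day 4 the strongest region lay in an intron of Slc7a6, an amino acid transporter gene, with 52.6 and 68.7 RPM at day 4 and 38.2 and 39.8 RPM in XEN cells (log2 difference -0.62 ± 0.15, adjusted p = 0.000892 by limma). The intronic region of Arid5b, a gene for an AT-rich DNA-binding protein, held 45.7 and 56.6 RPM at day 4 and 58.9 and 52.4 RPM in XEN cells. Its groups overlapped, and it was not called (log2 difference 0.13 ± 0.15, limma adjusted p = 0.536). Nor was the intronic region of Tpm4, a tropomyosin gene, with 42.1 and 51.5 RPM at day 4 and 60.1 and 58.5 RPM in XEN cells (log2 difference 0.35 ± 0.15, limma adjusted p = 0.0584). These regions were 1725 to 3595 bp wide, against a median of 524 bp, and RPM is given per region and not per length. The call at Nrp1 was lost without the deeper XEN library, with a log2 difference of 0.65, and that at Slc7a6 without the shallower day 4 library (-0.43) or either XEN library (-0.59 and -0.65). Both calls were also lost with the spread taken from all GATA6 times after Dox (limma adjusted p = 0.161 and 0.202) and beyond input.

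Among regions of at least 5 RPM in one of the groups, 3668 were called higher in XEN and 1252 lower. The largest difference was at an intronic region of Garem1, a gene of growth factor signalling, at chr18:21243949-21244539. It held 0.665 and 0.679 RPM at day 4 and 14.1 and 10.1 RPM in XEN cells, a 15.6-fold difference on the scale with the pseudocount (log2 3.97 ± 0.30, limma adjusted p = 1.52e-15). A second Garem1 intronic region, 49771 bp from the same start, was 12.3-fold higher. The intron of Slc22a8, which codes for an organic anion transporter, had 2.66 and 1.44 RPM at day 4 and 28.9 and 24.4 RPM in XEN cells (12.9-fold, log2 3.69 ± 0.24, limma adjusted p = 4.62e-17). It had the highest XEN signal of the 10 regions named in this direction.

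Both regions in Igsf11, a cell adhesion gene, were among those 10, with 14.6 and 12.7 RPM in XEN cells at one and 10.4 and 7.61 RPM at the other, against at most 1.11 RPM in any day 4 library. The remaining regions were nearest to Xxylt1, Cntn4, Creb3l1, Mical3 and Slc51a, between 12.5-fold and 15.3-fold higher. All but the Creb3l1 region, on chromosome 2, lay on chromosomes 6, 16, 18 or 19, whose input was also higher in XEN cells. The input difference at the 10 regions was 0.36 to 1.66 on the log2 scale, and none of them passed the test in input. Beyond input the calls at Cntn4, Creb3l1, Mical3, Slc51a and the weaker Igsf11 region were lost, and the others were kept. All were classed by the authors as free of PTFs, the pluripotency transcription factors OCT4, SOX2 and ESRRB, and all but Slc51a as Late. Of the 9079 regions called higher, 7176 were free of PTFs and 5942 Late, and of all 42403 regions 26524 and 14243. The Late class was built from these GATA6 values. Of the 10, all but Cntn4 were classed as without SOX17, beside 52.7% of the regions called higher and 55.5% of all.

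In the opposite direction the differences were nearly as large but the XEN libraries lay further apart. The region of largest difference lay 774947 bp from the start of Triml1, with 4.49 and 6.45 RPM at day 4 and 0.130 and 1.17 RPM in XEN cells (10.2-fold lower, log2 -3.34 ± 0.62, limma adjusted p = 0.00115). A region upstream of E2f7, a gene for a cell cycle repressor, held 5.04 and 5.43 RPM at day 4 and 0.130 and 1.23 RPM in XEN cells. The promoter region of Bzw1, at chr1:58392238-58393023, was more even, with 5.10 and 6.45 RPM at day 4 and 0.326 and 1.10 RPM in XEN cells (log2 -3.03 ± 0.37, limma adjusted p = 3.22e-08). In all 10 regions the shallower XEN library was above the deeper. Nearest genes of the others were Ncoa3, Tmem131, Grik3, Ptpn13, Nfasc, Hspa8 and Kif26a, and their differences ran from 7.49-fold to 8.62-fold. All 10 carried SOX17 in the authors' classes, as did 73.3% of the regions called lower and 44.5% of all regions. The calls at Triml1 and E2f7 were lost without the shallower day 4 library, where the log2 differences were -3.09 and -3.21. That at E2f7 was lost with DESeq2 as well (log2 -2.99, adjusted p = 0.0653). Beyond the region's own input none of the 10 was called (limma adjusted p 0.0658 to 0.554), in a fit that called 0.236% of all regions.

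**Figure D2:**
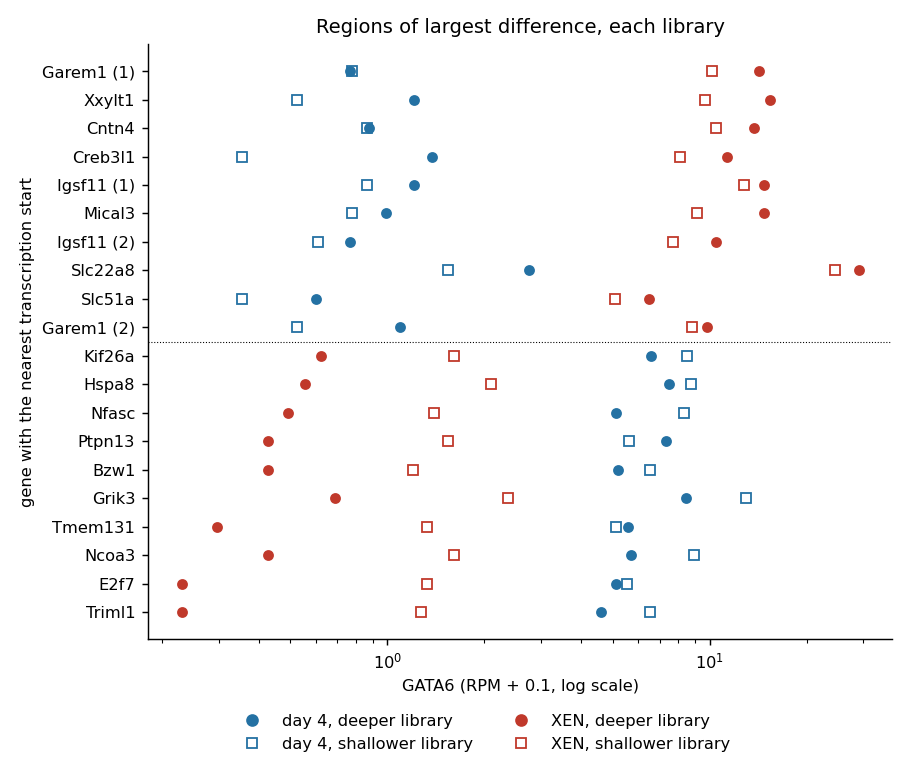
GATA6 signal in each of the 4 libraries at the 10 regions of largest difference in either direction, in RPM plus 0.1 on a log axis, named by the gene of the nearest start. The XEN libraries (red) stand to the right of the day 4 libraries (blue) above the dotted line and to the left below it, where the filled and open XEN symbols lie far apart.

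Transcription factor genes of the PrE had called regions in both directions. Within 100 kb of the starts of 13 such genes lay 124 regions, of which 28 (22.6%) were higher in XEN and 22 (17.7%) lower, against 21.3 and 14.5% of all regions within 100 kb of a start. The strongest region of a gene was higher in XEN for 7 of 13 and lower for 2, where over all 11718 genes with a region it was higher for 26.1% and lower for 15.7%. Calls higher in XEN rose with signal, to 41.6% of the regions of 3.65 RPM or more. Signal level was not matched between listed and other genes, here or for the lists below. The strongest region of Sox17, an endoderm regulator of the SOX family, lay upstream of its start with 35.1 and 40.5 RPM at day 4 and 66.0 and 55.9 RPM in XEN cells (log2 0.69 ± 0.15, limma adjusted p = 0.000239). Of the 8 Sox17 regions 6 were higher in XEN and none lower, and without the deeper XEN library the call on the strongest was lost at a log2 difference of 0.57.

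Gata4, the GATA factor that acts beside GATA6 in endoderm, had 7 of 20 regions higher and 1 lower. Its strongest region, in an intron, held 32.3 and 44.1 RPM at day 4 and 58.0 and 50.0 RPM in XEN cells (log2 0.51 ± 0.16, limma adjusted p = 0.00752). That call was lost without the deeper day 4 library (0.29) and without either XEN library (0.41 and 0.62), with the spread from all GATA6 times (limma adjusted p = 0.127) and beyond input. At the strongest region of Cited1, a transcriptional co-regulator, day 4 had 8.26 and 9.25 RPM and XEN cells 17.7 and 15.6 RPM, with an input difference of 0.97 beside the GATA6 difference of 0.92 on the log2 scale. The strongest region of Otx2, a homeobox gene of the epiblast and of anterior visceral endoderm, went the other way, with 6.54 and 8.83 RPM at day 4 and 1.11 and 2.33 RPM in XEN cells (log2 -2.17 ± 0.30, limma adjusted p = 1.26e-07).

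Pluripotency genes stood lowest of the 6 lists. Of 151 regions near 19 of the 20 genes, 52 (34.4%) were lower in XEN and 9 (5.96%) higher, with a median log2 difference of -0.68. Of all regions near a start, 14.5% were lower and 21.3% higher. The strongest region of a gene was lower for 7, higher for 2 and not called for 10. The higher ones belonged to Klf4 and Tfcp2l1, both transcription factor genes of naive pluripotency, with 19.1 and 17.3 RPM at day 4 and 31.9 and 28.8 RPM in XEN cells at Klf4 (log2 0.73 ± 0.17, limma adjusted p = 0.000639). A region 94923 bp from the start of Sox2, a core factor of the pluripotent state, had 3.05 and 5.77 RPM at day 4 and 0.326 and 0.685 RPM in XEN cells (log2 -2.89 ± 0.39, limma adjusted p = 4.52e-08). The strongest regions of Dppa4 and Dppa5a, both marker genes of pluripotent cells, had 6.60 and 6.11 RPM and 8.43 and 12.7 RPM at day 4, against 1.30 and 2.74 RPM and 2.61 and 4.11 RPM in XEN cells. The groups did not overlap at Sox2, Dppa4 or Dppa5a. Tbx3, a T-box gene active in both pluripotent cells and endoderm, had 12 of its 23 regions lower and none higher. Esrrb, an orphan nuclear receptor gene, had 8 of 13 lower and none higher, and its strongest region held 15.2 and 22.5 RPM at day 4 and 9.32 and 11.7 RPM in XEN cells (log2 -0.82 ± 0.20, limma adjusted p = 0.00112). Without the shallower day 4 library or the deeper XEN library the latter call was lost, at -0.54 and -0.66.

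Visceral endoderm genes had 24 of 83 regions (28.9%) lower and 15 (18.1%) higher, against 14.5 and 21.3% of all regions near a start. The strongest region of a gene was higher for 6 of 18 and lower for 3. Dkk1, which codes for a secreted Wnt antagonist, had a region of 27.9 and 31.1 RPM at day 4 and 68.6 and 56.6 RPM in XEN cells (log2 1.08 ± 0.15, limma adjusted p = 1.50e-07). The promoter region of Spink1, a protease inhibitor gene, had 7.93 and 7.13 RPM at day 4 and 21.1 and 19.9 RPM in XEN cells (log2 1.44 ± 0.20, limma adjusted p = 8.86e-08). The Dkk1 and Spink1 regions lie on chromosomes 19 and 18, with input differences of 0.54 and 0.48, and neither was called beyond input. Cdh1, the E-cadherin gene, had 7 of 9 regions lower and none higher, and its strongest held 10.6 and 10.4 RPM at day 4 and 3.59 and 4.18 RPM in XEN cells (log2 -1.42 ± 0.24, limma adjusted p = 3.47e-06). Lrp2, the gene of the endocytic receptor megalin, had 9 of 17 lower and none higher, and Slc2a2, a glucose transporter gene, had 4 of 4 higher.

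Of 145 regions near genes of FGF, PDGF and TGF-beta signalling 26 (17.9%) were higher and 27 (18.6%) lower, close to the 21.3 and 14.5% of all regions near a start. Dusp6, a phosphatase that restrains ERK, had 5 of 9 regions higher and none lower, and Fgfr2, a receptor of FGF, had 6 of 10 lower and none higher. The strongest Fgfr2 region held 4.71 and 6.03 RPM at day 4 and 1.11 and 2.26 RPM in XEN cells (log2 -1.68 ± 0.31, limma adjusted p = 2.32e-05), and its call was lost without the shallower day 4 library at -1.51. The strongest regions of Smad6, an inhibitor of BMP signalling, of Etv5, an ETS factor downstream of FGF, and of Pdgfrb, which codes for a PDGF receptor, were all higher in XEN, by 1.67 ± 0.24, 1.19 ± 0.22 and 2.20 ± 0.34 on the log2 scale. The Pdgfrb region held 0.721 and 0.934 RPM at day 4 and 4.37 and 3.91 RPM in XEN cells. The Etv5 and Pdgfrb regions lie on chromosomes 16 and 18, with input differences of 0.22 and 0.99.

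Genes of AP-1, TEAD and the mechanical response had 24 of 106 regions (22.6%) higher and 18 (17%) lower. This was close to the 21.3 and 14.5% of all regions near a start. The strongest region of a gene was higher for 6 of 12 and lower for 1, beside 26.1 and 15.7% over all genes with a region, not matched for signal. The promoter region of Jun, an AP-1 subunit, held 4.05 and 4.41 RPM at day 4 and 10.8 and 8.02 RPM in XEN cells (log2 1.12 ± 0.24, limma adjusted p = 0.000188), with a larger input difference of 1.67. Yap1, the co-activator of TEAD factors, had an intronic region of 11.9 and 14.6 RPM at day 4 and 3.98 and 5.35 RPM in XEN cells (log2 -1.50 ± 0.23, limma adjusted p = 5.84e-07). Ccn2, a known YAP target gene, had 5 of 8 regions higher and 1 lower.

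Basement membrane and parietal endoderm genes had 21 of 140 regions (15.0%) higher and 23 (16.4%) lower, against 21.3 and 14.5% of all regions near a start. Of the lower regions 16 belonged to Col4a1 and Col4a2. The strongest region of a gene was higher for 7 of 20 and lower for 1. The strongest region of Lamc1, a laminin subunit, was not called, with 33.3 and 38.6 RPM at day 4 and 44.1 and 38.4 RPM in XEN cells (log2 0.20 ± 0.16, limma adjusted p = 0.344). Nid2, the gene of the basement membrane protein nidogen 2, was higher in XEN at its strongest region, with 10.8 and 11.8 RPM against 20.5 and 19.7 RPM (log2 0.83 ± 0.19, limma adjusted p = 0.000490).

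Col4a1 and Col4a2 code for the main chains of basement membrane collagen and share a divergent promoter. Of the 18 regions nearest to Col4a1 none was higher in XEN and 14 were lower, as many as at Rbpms and more than at any other gene. The 2 regions nearest to Col4a2 were lower as well. The region at chr8:11308478-11310403, inside Col4a1 but nearest to the Col4a2 start and among the 5 strongest at day 4, held 43.6 and 54.6 RPM at day 4 and 12.1 and 16.7 RPM in XEN cells (log2 -1.78 ± 0.18, limma adjusted p = 1.82e-11). Its input was 6.00 and 6.89 RPM at day 4 and 0.837 and 1.03 RPM in XEN cells, a difference of -2.66 on the log2 scale (limma adjusted p = 1.44e-09 in the input fit). Input and GATA6 thus differed in the same direction there, and input by more.

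This low input extended over 14 consecutive regions, chr8:11233885-11321948 (88.1 kb), which were singled out after their values were seen. In each of them both XEN input libraries lay below both day 4 input libraries, and all 14 were called lower for GATA6. Summed over the block, input was 25 and 27.6 RPM at day 4 and 4.81 and 4.13 RPM in XEN cells, and GATA6 153 and 172 RPM at day 4 and 33.8 and 60.1 RPM in XEN cells. Over all regions 29 were called higher in input (0.0684%) and 16 lower (0.0377%), and 7 of the 16 belonged to this block. Of the 42222 runs of 10 consecutive regions along the chromosomes, the lowest XEN to day 4 ratio of summed input fell in it, at -2.78 on the log2 scale with 20.5 RPM at day 4, and the lowest elsewhere was -1.82 with 1.30 RPM at day 4.

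Other factors were also low there. The authors' pooled values, summed over the 14 regions, were 284 RPM at day 4 and 37.6 RPM in XEN cells for SOX17, 105 and 10.3 for OCT4, and 123 and 11.6 for SOX2. In the earlier ES cell libraries input summed to between 10.5 RPM (8 h) and 17 RPM (day 1), above the 5.87 RPM of XEN cells in the same pooled values. The next region past the block, in a Col4a2 intron at chr8:11367027-11368163, held 21 and 17.1 RPM of GATA6 at day 4 and 21.1 and 19.8 RPM in XEN cells, with input of 2.32 and 1.24 RPM against 1.67 and 1.94 RPM, and it was not called. Towards the other end, 2 further Col4a1 regions were called lower for GATA6 (log2 -1.42 and -1.76) with input differences of -0.08 and 0.15. With input in the fit, none of the 14 regions differed in either direction at an adjusted p under 0.05. That fit called only 0.236% of all regions in either direction, so the absence of calls among 14 tells little. Copy number of the XEN line and recovery of open chromatin in input cannot be told apart from these values.

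**Figure D3:**
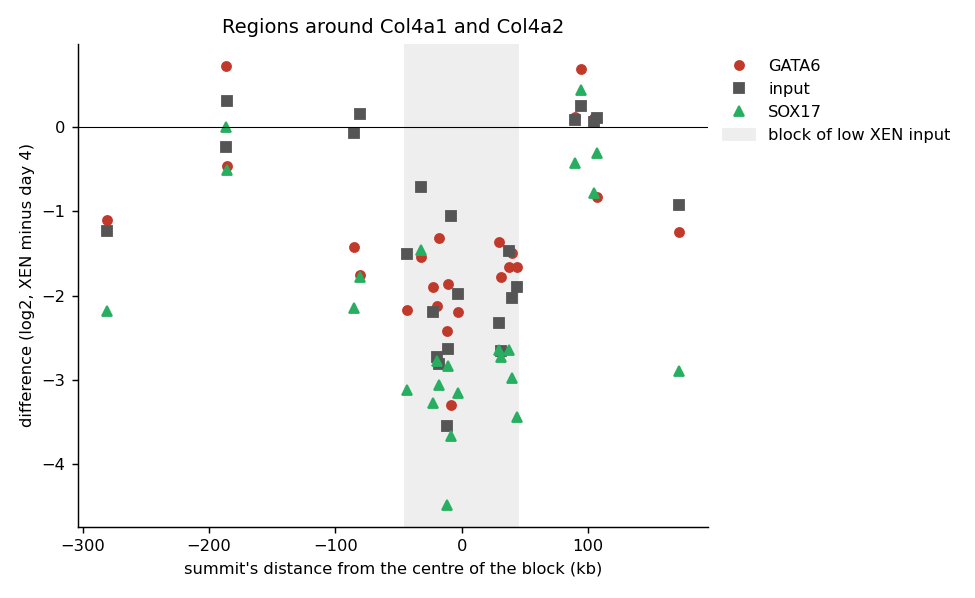
Difference between XEN cells and day 4 (log2, y axis) of GATA6, input and SOX17 at the regions around Col4a1 and Col4a2, by the distance of the summit from the centre of the block of low XEN input (x axis, kb), which is shaded. All 14 shaded regions lie below 0 in GATA6, input and SOX17, and 3 of the next 4 to the right lie near or above 0 in GATA6.

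Whole chromosomes differed in input as well, and GATA6 followed. The median input difference between XEN cells and day 4 was 0.53 on the log2 scale on chromosome 16, 0.50 on 19, 0.36 on 6, 0.30 on 18 and 0.22 on X, and between -0.10 and 0.11 on the other autosomes. The median GATA6 difference was 0.52 on chromosome 16, 0.61 on 19, 0.29 on 6, 0.31 on 18 and 0.07 on X. These 5 chromosomes hold 19.4% of the regions and 29.9% of the regions called higher in XEN. On them 33.1% of regions were higher and 8.92% lower, and on the other chromosomes 18.6 and 15.9%. With each chromosome's median input difference taken out of the XEN values, an alternative added after seeing the data, 8380 regions were higher and 6484 lower, including 88.8 and 95.7% of those called above.

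**Figure D4:**
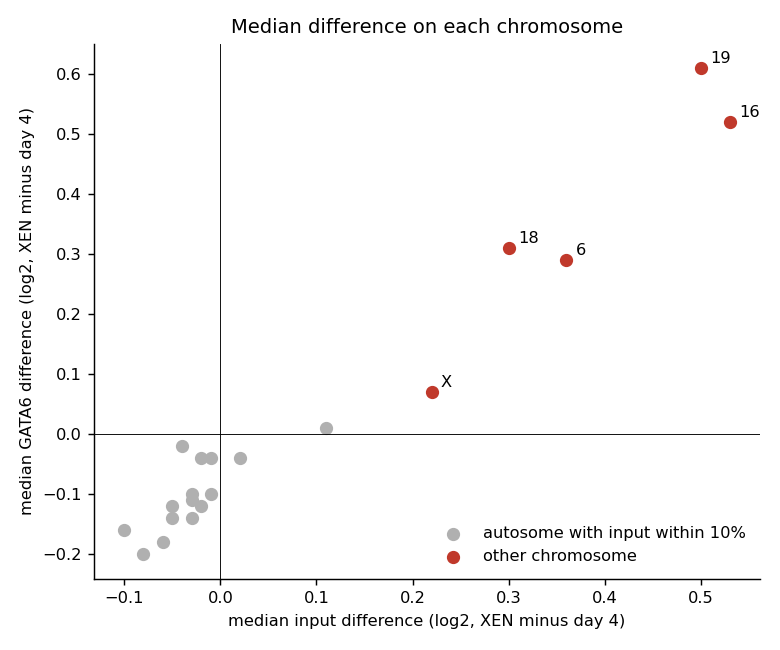
Median input difference (x axis) and median GATA6 difference (y axis) between XEN cells and day 4 on each autosome and X, both on the log2 scale. Chromosomes 6, 16, 18, 19 and X (red) lie between 0.22 and 0.53 in input and between 0.07 and 0.61 in GATA6, and the grey chromosomes cluster near the origin.

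Input also differed with the GATA6 call within chromosomes. At regions higher in XEN for GATA6 the median input difference was 0.38, and at the lower regions -0.29. With the median of each chromosome taken out these were 0.28 and -0.31, and on the autosomes of even input alone 0.29 and -0.32. A fit of the GATA6 difference beyond the input difference called 80 regions higher (0.189%) and 20 lower (0.0472%). It rests on few reads, with a median of 6 and 3 per region in the deeper and shallower input libraries of either group against 15 to 20 in the GATA6 libraries. In that fit 8403 of the 9079 regions called higher and 5853 of the 6181 called lower kept the sign of their difference. The same GATA6 values had chosen these regions, so the kept signs are no separate evidence for the calls.

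The GATA6 medians of the 2 directions also differed earlier in induction. The directions were defined by day 4 and XEN values, and the earlier times come from the same induced line, so this is a description only. In the authors' pooled values, the median of the regions higher in XEN was 0.617 RPM 8 h after Dox, 0.809 RPM on day 2 and 1.46 RPM on day 4, before 3.97 RPM in XEN cells. That of the regions lower in XEN was 1.62 RPM 8 h after Dox, 2.20 RPM on day 2 and 2.44 RPM on day 4, before 0.866 RPM in XEN cells. The regions that were not called had their highest median, 1.76 RPM, 8 h after Dox, and stood at 1.04 RPM on day 4 and 0.964 RPM in XEN. In the authors' classes, which were built from these GATA6 values and are a description only, 41.7% of Late, 22.0% of Early&Constant and 3.21% of Transient regions were higher in XEN, and 13, 21.6 and 10.8% were lower.

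SOX17, which binds with GATA6 in endoderm, differed in the same direction as GATA6 at most regions where both were called. Its values come from other libraries, 2 for each group, but from the same cell lines, and input was not taken out of them. Its median log2 difference was also highest on the chromosomes of raised XEN input. It was 0.33 on chromosome 16, 0.23 on 19, 0.14 on 6, 0.07 on 18 and -0.15 on X, against -0.26 over all regions. Of the regions higher for GATA6, 3393 (37.4%) were higher for SOX17 and 13 lower, where 8.64% of all regions were higher for SOX17 (29.6% were called in either direction). Of the regions lower for GATA6, 4712 (76.2%) were lower for SOX17 and 3 higher, where 21% of all regions were lower for SOX17. The pooled median of SOX17 went from 1.37 RPM at day 4 to 2.49 in XEN cells at the former and from 2.24 to 0.623 RPM at the latter.

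OCT4 and SOX2 are factors of the pluripotent state. At regions lower for GATA6 in XEN the pooled median of OCT4 was 1.49 RPM at day 4 and 0.533 RPM in XEN cells, and at regions higher it was 0.713 and 0.667 RPM, with a single OCT4 library of XEN cells. SOX2 had 1.43 RPM at day 4 and 0.480 RPM in XEN cells at the former, and 0.969 and 0.818 RPM at the latter. Pooled input at the lower regions was 0.565 RPM at day 4 and 0.473 RPM in XEN cells. At the higher regions it was 0.453 and 0.632 RPM. In XEN cells 2.25% of OCT4 reads and 3.13 and 2.62% of SOX2 reads lay in the regions, beside 2.37 and 2.44% of input. The XEN values thus stood close to input and do not show binding kept at the higher regions. SOX2 was called lower in XEN at 64.6% of the regions lower for GATA6 and at 16.9% of those higher, where it was lower at 29.3% of all regions.

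**Figure D5:**
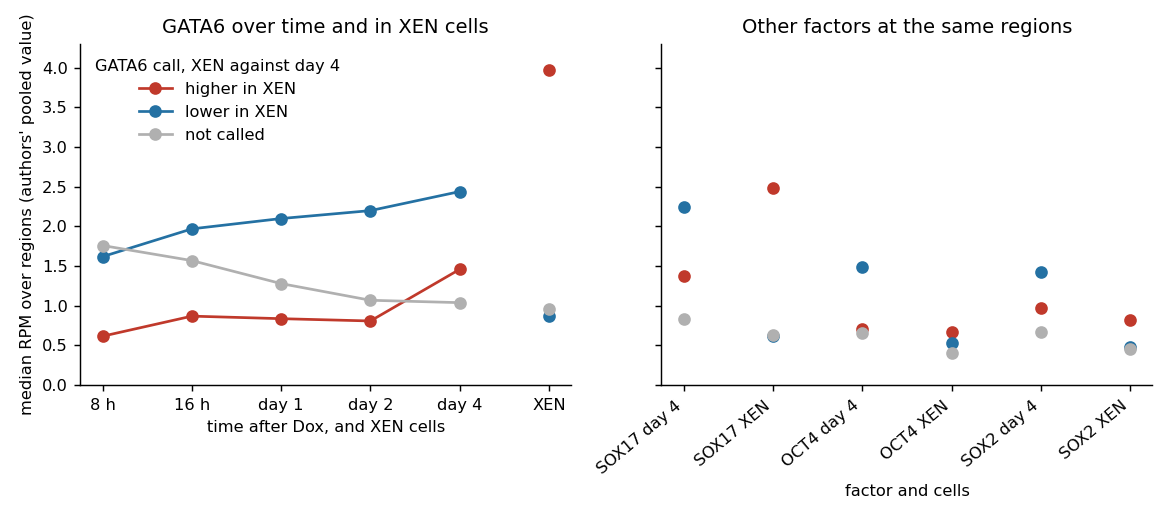
Median RPM over regions, in the authors' pooled values, for GATA6 by time after Dox and in XEN cells (left) and for SOX17, OCT4 and SOX2 at day 4 and in XEN cells (right), with regions grouped by their GATA6 call between XEN and day 4. Regions lower in XEN have a GATA6 median of 1.62 to 2.44 RPM from 8 h to day 4, and regions higher in XEN stay at or under 1.46 RPM until the 3.97 RPM of XEN cells.

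The authors' PTF classes sort regions by peaks of OCT4, SOX2 or ESRRB, either present in undifferentiated ES cells or ectopic, gained after induction. Of the 7038 regions with ectopic PTFs 28.3% were lower in XEN and 17.3% higher, with a median log2 difference of -0.30. Of the 8841 regions bound by PTFs before Dox 20.3% were lower and 7.77% higher. The 26524 regions without PTFs had the opposite balance, with 9.01% lower and 27.1% higher and a median of 0.22. Among Late regions alone, 34.2% of those with ectopic PTFs were lower and 16.4% higher, against 10.7 and 45.0% without PTFs.

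Higher calls varied more than lower calls with the chromatin of undifferentiated cells, as the authors classed it. Regions closed at day 0 were higher in XEN in 27.5% of cases and lower in 14.6%, and accessible regions in 10.7 and 13.6%. Facultative heterochromatin, the class marked by Polycomb, had 31.7% of 9475 regions higher and 12.9% lower, and active enhancers 9.73% higher and 17.8% lower of 4730. Regions at promoters, within 1000 bp of a start, were higher in 16.4% and lower in 10.3%.

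Short motifs differed between the directions beyond the GATA site itself. Each was searched on both strands within 200 bp around the GATA6 summit, and shares are a description over regions. GTTAAT, letters of the HNF1 site, stood in 4.27% of the regions higher in XEN, 15.9% of the regions lower and 9.08% of all. TGTGGTT, the RUNX site, stood in 3.43, 11.2 and 5.94%, and TGCAAAT, the OCT site, in 3.13, 7.43 and 5.70%. The AP-1 site TGANTCA stood in 13.9% of the regions higher in XEN, 9.24% of those lower and 10.6% of all, and GGGTGTG, a KLF site, in 10.8, 6.07 and 9.32%. GGGCGGG, the SP site, had the largest ratio of higher over lower (log2 0.86), in 3.78, 2.09 and 3.77%. Its share at the higher regions was thus near that of all regions. The GATA letters AGATAA were nearly even between the directions, in 55.9, 51.8 and 54.3%, and so was GGAATG of TEAD, in 19.4, 19 and 18.7%. Of the SOX letters, AACAAT was nearly even, in 24.7, 25.2 and 21.5%. The SOX17 site ACAAAGG was less so, in 9.89, 12.9 and 10.5%. TGTTTAC of FOX factors stood in 9.03, 6.60 and 6.14%, and CAGGTG, an E-box, in 10.3, 16.4 and 15.5%.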

How the data were processed

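The authors trimmed reads with cutadapt, aligned them to mm10 with Bowtie2, filtered on mapping quality, removed duplicates by molecular identifiers, called peaks with MACS2 and counted reads per region with bamsignals. The authors deposited 1 RPM value per region and condition, averaged over libraries, and FIMO scores of motif matches, whose classes and positions were used as deposited. In the GATA6 and input columns of both groups each value is the mean over 2 libraries of reads plus 1, scaled by a whole-number depth, and was split into the whole reads of each library for all 42403 regions. For SOX17 at day 4 the split had several solutions at 27 regions and for SOX2 at day 4 at 1, and OCT4 in XEN cells is 1 library. Of the 105 columns, 14 hold values of accessibility and histone mark samples that were not used here. Classes of regions deposited by the authors were copied, and the column with their siRNA comparison was left out.

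The comparison of XEN cells with day 4 used 2 GATA6 libraries a group and limma 3.58.1 with trend and robust variance, on log2(RPM + 0.1), in R 4.3.3. The pseudocount understates differences of low regions. The spread is that of 2 libraries a group. Input, SOX17 and SOX2 had the same fit. edgeR 4.0.16 and DESeq2 1.42.0 were alternatives on the recovered reads. The method was tested on simulated reads, drawn independently for each library with a single dispersion. These lack the shifts between libraries of a group seen in the data, so they do not test their effect. Coordinates are those of the deposited table, and genes are the nearest protein-coding starts of GENCODE M21. Sequence was read from GRCm38.p6, where 81.1% of the authors' GATA6 matches have GATA at motif bases 5 to 8. A promoter lies within 1000 bp of a start.

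Regions named are the 10 largest differences in each direction among called regions of at least 5 RPM, the 5 strongest of each group, and the strongest of each listed gene within 100 kb of its start, of which some are described, with the 5 genes of most calls in each direction. Members, lists and tests were chosen with earlier results of these data known.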

Additional observations from a re-analysis of the deposited data

How the results depend on the processing

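No paired analysis was possible because the separated libraries carry no replicate number. Of the 9079 and 6181 calls, no region was called in the opposite direction under any other fit. TMM factors, median centring, other pseudocounts, filters on low values, edgeR (9180 and 6287), the added read and the chromosome correction kept the counts within 1.5 times. So did the looser threshold of the study's siRNA comparison and the restriction to chromosomes of even input. The counts of higher and lower regions were 80 and 20 beyond input, 4658 and 2598 with DESeq2, which gave an adjusted p for 30069 regions, and 5583 and 5150 with the spread from all GATA6 times after Dox. Leaving out 1 library gave 4136 to 7062 higher and 1516 to 4795 lower, with the lone library assumed to vary like the pair of the other group. The cause was not tested. In the fit beyond input, where input gave a median of 3 to 6 reads per region, 35 of 45 named calls were lost and 4 more changed sign, at Slc7a6 (0.26), Col4a2 (0.89), Cited1 (-0.05) and Jun (-0.55). Without 1 library Arid5b ranged from -0.03 to 0.28 and the uncalled Col4a1 region from -0.03 to 0.25. The pooled median log2 ratio of Late regions, 0.58, was 0.69 minus input, 0.40 as a ratio to input, 0.40 with a pseudocount of 1 and 0.48 as a mean. With 100 bp windows the log2 ratio of motif shares, higher over lower, moved to 0.20 (GATA), 0.76 (AP-1), 0.23 (TEAD), -2.28 (HNF1), -0.04 (ESRRB), -0.84 (E-box), 1.05 (KLF) and -2.15 (RUNX), and the other 9 motifs stayed within their intervals. Alternatives added after seeing the data were the added read, the chromosome correction and the filter on regions with a read in every library.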

Other observations

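Besides Col4a1, the genes with the most regions lower in XEN within 100 kb were Rbpms (14 of 29), Tbx3 (12 of 23), Dcbld1 (10 of 13) and Auts2 (9 of 16), with at most 1 region higher at any of them. The genes with the most regions higher were Tcf7l2, a Wnt pathway transcription factor gene (17 of 31), Magi1 (16 of 26), Arhgap6 (15 of 18), Atp13a3 (13 of 23) and Mcc (12 of 14). These lie on chromosomes 19, 6, X, 16 and 18, all with higher input in XEN cells, and their own median input differences were 0.49, 0.30, 0.05, 0.53 and 0.98 on the log2 scale beside median GATA6 differences of 0.82, 1.29, 1.78, 0.99 and 2.21.

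On chromosome 8 the pooled input of both groups stood above that before Dox, by a median of 0.22 on the log2 scale at day 4 and 0.24 in XEN cells, so that the groups differed there by 0.02. On the other autosomes the day 4 input differed from that before Dox by -0.03 to 0.07. The single region on chromosome Y was lower in XEN cells, with an input difference of -2.09.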
